A study of Mus musculus with 28 samples.

Results

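Elastic fibres are built from an elastin core laid onto a scaffold of fibrillin microfibrils, and the same microfibrils hold transforming growth factor beta (TGF-beta) in a latent store. The expression of 10 genes of this system was followed in mouse fibroblasts, in neural stem cells induced from fibroblasts and in neural stem cells without added factors. The genes were taken by name from the deposited expression table of 17295 genes, and all 10 were found. All 10 also passed the filter on low values, which kept the 16275 genes whose mean value over the libraries was 10 or more. They are Ltbp1, Ltbp2, Ltbp3 and Ltbp4, which encode the latent TGF-beta binding proteins, Fbn1 (fibrillin-1), Mfap5 (a microfibril-associated glycoprotein), Efemp1 and Efemp2 (fibulin-3 and fibulin-4), Eln (tropoelastin) and Lox (lysyl oxidase).

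The RNA-seq experiment held 28 libraries in 14 groups of 2. Induced neural stem cells (miNSC) came from fibroblasts carrying the reverse transactivator M2rtTA and doxycycline-inducible lentiviruses that encoded combinations of factors labelled B, K and M with F, the engineered eSox17FNV. Doxycycline at 1 μg/mL was given for 18 days, and colonies were picked on day 20 and expanded on Matrigel in medium with EGF and bFGF. A line may therefore be 1 picked colony. Of the 10 miNSC groups, 2 came from ICR embryonic fibroblasts (with BKF or KF) and 3 from Sox2-GFP embryonic fibroblasts (BKF, KF or KMF). A further 4 came from tail-tip fibroblasts of 1.0-year-old Sox2-GFP mice, namely BKF, KMF and one line with B, K, M and F (4F) at passage 8 and at passage 18. The last came from ear fibroblasts of 1.0-year-old Sox2-GFP mice with 4F, at a passage the labels do not give. Without added factors, the Sox2-GFP strain gave tail-tip fibroblasts at 1.0 and 2.5 years, skin fibroblasts at 2.5 years, and neural stem cells (NSC) at 2.5 years, with 1 NSC library at passage 2 and 1 at passage 5. No library of untreated embryonic or ear fibroblasts, or of ICR fibroblasts, was analysed here, and the labels do not say whether paired libraries came from separate mice or cultures, so p-values measure the spread between libraries, which may be technical.

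The deposited values are whole numbers on one shared scale: the totals of the libraries ran from 15563679 to 15571626, the 5319 highest ranks held the same value in every library, and the 10 highest genes of each library all held the top value, 92914. A value therefore gives a gene's rank within its library, and sequencing depth cannot be read from it. Whether it was adjusted for gene length is not given in the sources used here, so levels were not compared between genes. As a check of the labels, the summed level of 8 fibroblast markers (among them Col1a1, Pdgfra and Dcn) was 128570 to 186969 in the 6 fibroblast libraries, 112 to 2293 in the 20 miNSC libraries and 595 to 1316 in the 2 NSC libraries. Sox2, a defining neural stem cell gene, was at 0 in all 6 fibroblast libraries and between 969 and 2854 in miNSC.

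Latent TGF-beta binding proteins, other than that encoded by Ltbp2, tie the secreted, inactive TGF-beta complex to the matrix, where integrins and proteases release it. Fibulin-4 brings lysyl oxidase to tropoelastin, and lysyl oxidase then crosslinks elastin and collagen. Connective tissue fibroblasts are a main source of these proteins, whereas the brain has little elastic fibre outside its vessels and coverings.

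RefSeq promoter sequences (250 bases before to 50 after a start site, build GRCm38.p6) were found for 7 of the genes, with 12 start sites; Mfap5, Eln and Lox had no entry in the table used. The following are shown because Ltbp2, Efemp1 and Fbn1 were far lower in neural cells than in fibroblasts, Ltbp4 was higher, and Ltbp3 differed least. Each is printed from 5′ to 3′ on the gene's strand, and capitals mark CAGAC or GTCTG, the core of the Smad binding element on either strand, and GGGCGG or CCGCCC, the GC box bound by Sp1-like factors; overlapping GC boxes run together.
Ltbp2 (chr12:84876442-84876741, minus strand): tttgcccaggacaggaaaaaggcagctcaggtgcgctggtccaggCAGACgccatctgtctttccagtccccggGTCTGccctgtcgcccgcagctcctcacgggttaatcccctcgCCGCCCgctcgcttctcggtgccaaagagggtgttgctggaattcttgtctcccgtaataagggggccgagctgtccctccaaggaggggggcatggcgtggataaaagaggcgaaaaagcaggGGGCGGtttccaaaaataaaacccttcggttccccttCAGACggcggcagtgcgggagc
Efemp1 (chr11:28852955-28853254, plus strand): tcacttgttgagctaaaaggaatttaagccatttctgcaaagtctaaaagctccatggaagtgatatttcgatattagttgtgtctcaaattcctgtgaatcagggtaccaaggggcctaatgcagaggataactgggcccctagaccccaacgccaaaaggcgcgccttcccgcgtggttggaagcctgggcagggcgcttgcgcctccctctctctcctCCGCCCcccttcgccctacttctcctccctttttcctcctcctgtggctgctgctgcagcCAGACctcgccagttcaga
Fbn1 (chr2:125506389-125506688, minus strand): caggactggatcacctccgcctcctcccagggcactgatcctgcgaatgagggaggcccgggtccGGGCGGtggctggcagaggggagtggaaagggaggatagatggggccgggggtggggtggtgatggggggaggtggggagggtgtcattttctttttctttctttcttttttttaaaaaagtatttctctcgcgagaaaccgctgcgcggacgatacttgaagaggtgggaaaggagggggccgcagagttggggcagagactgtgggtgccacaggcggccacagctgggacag
Ltbp4, first start site (chr7:27337563-27337862, minus strand): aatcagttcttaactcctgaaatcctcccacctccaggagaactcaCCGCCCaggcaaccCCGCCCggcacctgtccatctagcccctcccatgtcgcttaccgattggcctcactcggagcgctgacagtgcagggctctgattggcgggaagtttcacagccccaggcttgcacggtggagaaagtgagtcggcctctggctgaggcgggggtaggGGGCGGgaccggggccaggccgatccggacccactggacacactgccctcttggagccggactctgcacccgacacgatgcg
Ltbp4, second start site (chr7:27333599-27333898, minus strand): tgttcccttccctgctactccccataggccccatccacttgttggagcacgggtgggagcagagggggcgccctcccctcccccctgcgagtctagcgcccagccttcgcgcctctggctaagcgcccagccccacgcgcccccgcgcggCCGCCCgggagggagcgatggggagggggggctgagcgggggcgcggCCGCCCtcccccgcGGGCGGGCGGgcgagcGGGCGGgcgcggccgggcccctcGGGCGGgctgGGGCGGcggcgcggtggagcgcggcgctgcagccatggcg
Ltbp3 (chr19:5740650-5740949, plus strand): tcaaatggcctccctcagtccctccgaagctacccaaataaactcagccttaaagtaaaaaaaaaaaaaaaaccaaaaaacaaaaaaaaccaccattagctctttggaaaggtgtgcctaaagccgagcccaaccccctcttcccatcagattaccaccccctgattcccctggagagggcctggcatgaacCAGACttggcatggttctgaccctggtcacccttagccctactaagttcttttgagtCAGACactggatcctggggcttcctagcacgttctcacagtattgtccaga

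The GC box was found in 9 of the 12 promoters, against 35.7% of the 32851 RefSeq promoters of the table, and CAGAC in 6 of 12, against 49.6%. The windows of Ltbp2 and Efemp1 held both motifs. Fbn1 held 1 GC box and no CAGAC, and both printed Ltbp4 windows held GC boxes (3 and 7 matches) and no CAGAC. Ltbp3 held 2 CAGAC matches and no GC box. TATAAA was found in none of the 12 (13.6% of all promoters), TGANTCA, the AP-1 motif, in 2 of 12 (7.81%), CACCC in 10 of 12 (57.5%) and the TEAD motif GGAATG in none (14.7%). The windows of the last 2 start sites overlap in Ltbp4, as they do in Efemp2, so these counts are not of independent sequences, and a match is a description of letters, not of binding. CpG content also varied: Ltbp3 had 3 CpG in its window, Efemp1 11, Fbn1 14, Ltbp2 20 and the second Ltbp4 window 39, with a median of 7 over all promoters.

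In induced neural stem cells the elastic fibre and latent TGF-beta genes stood on both sides of their fibroblast levels. Ltbp1, Ltbp2, Ltbp3, Fbn1, Efemp1, Efemp2, Mfap5 and Lox were lower than in fibroblasts and Ltbp4 and Eln were higher, so all 10 passed the test (limma on log2(value + 1), Benjamini-Hochberg adjusted p under 0.05 over 16275 genes). Over all genes the background was 76.5%, with 42.8% higher and 33.7% lower, so a call as such was common. The median log2 fold change was -5.09 over the 10 genes and 0.10 over all genes tested. For 9 of the 10 the 20 miNSC and 6 fibroblast libraries did not overlap, against 31.9% of all genes, and Ltbp3 was the exception. Ltbp2, Efemp1 and Mfap5 averaged 0, 4.2 and 5.85 in miNSC and passed the filter on low values only through the fibroblast libraries. A lower level in miNSC was thus the only call open to these genes, so they add no support to these counts or to the median over the 10 genes. In bulk samples, fewer cells of a type and less RNA per cell cannot be told apart.

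Among the latent TGF-beta binding proteins, Ltbp2 (chr12:84783212-84876532, minus strand, GRCm38) was the most sharply divided. Its values were 11652 in both 1.0-year tail-tip libraries, 9708 and 9950 in the 2.5-year tail-tip libraries, and 3772 and 3398 in the skin libraries. It was listed at 0 in all 22 neural libraries, induced and NSC alike. Ltbp1 (chr17:75005568-75392512) stayed detectable: it ran from 1160 to 2416 in fibroblasts and from 40 to 693, with a median of 181, in miNSC. No miNSC library reached the lowest fibroblast library. The mean of Ltbp1 was 8.28-fold lower (log2 fold change -3.35 ± 0.29 SE; limma adjusted p = 1.47e-08).

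Ltbp4 (chr7:27305136-27337692) moved the other way. It was 142 and 145 in the 1.0-year tail-tip fibroblasts, 142 and 132 at 2.5 years and 108 and 114 in skin fibroblasts. Its miNSC values ran from 356 to 2118 with a median of 1514.5, and every one was above every fibroblast library. The mean was 11.0-fold higher (log2 fold change 3.32 ± 0.10 SE; limma adjusted p = 1.3e-14).

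Ltbp3 (chr19:5740904-5758532) hardly differed. It ran from 2318 to 3953 in fibroblasts and from 1342 to 4210 in miNSC, so the libraries overlapped. Its log2 fold change was -0.27 ± 0.11 SE (limma adjusted p = 0.0401), and the call was lost in 17 of the 26 fits that left out 1 library, in each of the 6 without a fibroblast library (highest adjusted p = 0.0884), and with each group's mean as 1 sample (adjusted p = 0.453).

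The microfibril genes fell far below fibroblast levels. Fbn1 (chr2:125300594-125507993, minus strand), the main fibrillin of adult connective tissue, was 24587 in both 1.0-year tail-tip libraries, 21805 and 24587 at 2.5 years and 17981 in both skin libraries. In miNSC it ran from 72 to 846 with a median of 290.5. The groups were widely apart, and the mean was 62.2-fold lower (log2 fold change -6.34 ± 0.12 SE; limma adjusted p = 2.34e-17). Fbn1 overlaps the predicted gene Gm9913 by 2793 bases on the opposite strand, whose median was 97.5 in fibroblasts and 0 in miNSC. The labels do not say whether counting used strand, so reads of such pairs cannot be told apart. Mfap5 (chr6:122505845-122529290) ran from 3888 to 6318 in fibroblasts and from 0 to 24 in miNSC, where 10 of 20 libraries were at 0 (log2 fold change -10.67 ± 0.50 SE; limma adjusted p = 3.59e-12).

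The fibulins differed in how much remained. Efemp1 (chr11:28853204-28926743) was 21805 in both 1.0-year tail-tip libraries, 6859 and 7153 at 2.5 years, and 13042 and 12122 in skin. Of the miNSC libraries 18 of 20 were at 0, and 1 library of the ear 4F line and 1 of the tail-tip 4F line at passage 8 were at 42. Efemp2 (chr19:5473954-5482517) ran from 6032 to 16127 in fibroblasts and kept values between 443 and 1129 in all 20 miNSC libraries. Its mean was 15.1-fold lower (log2 fold change -3.84 ± 0.13 SE; limma adjusted p = 3.99e-14). Efemp2 overlaps Mus81 by 173 bases on the opposite strand.

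The elastin precursor and its crosslinking enzyme went in opposite directions. Eln (chr5:134702593-134747323, minus strand) was 42 and 38 in 1.0-year tail-tip fibroblasts, 29 and 28 at 2.5 years and 5 and 15 in skin fibroblasts. In miNSC it ran from 45 to 437 with a median of 226, above every fibroblast library by a narrow margin at the low end. The mean was 8.17-fold higher (log2 fold change 2.93 ± 0.21 SE; limma adjusted p = 1.55e-09). Lox (chr18:52516067-52529867, minus strand) held the top value, 92914, in all 6 fibroblast libraries, so differences among them could not be seen and the fold change is limited by that top. In miNSC it ran from 0 to 88 with a median of 40 and 3 of 20 libraries at 0 (limma adjusted p = 2.89e-13).

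**Figure D1:**
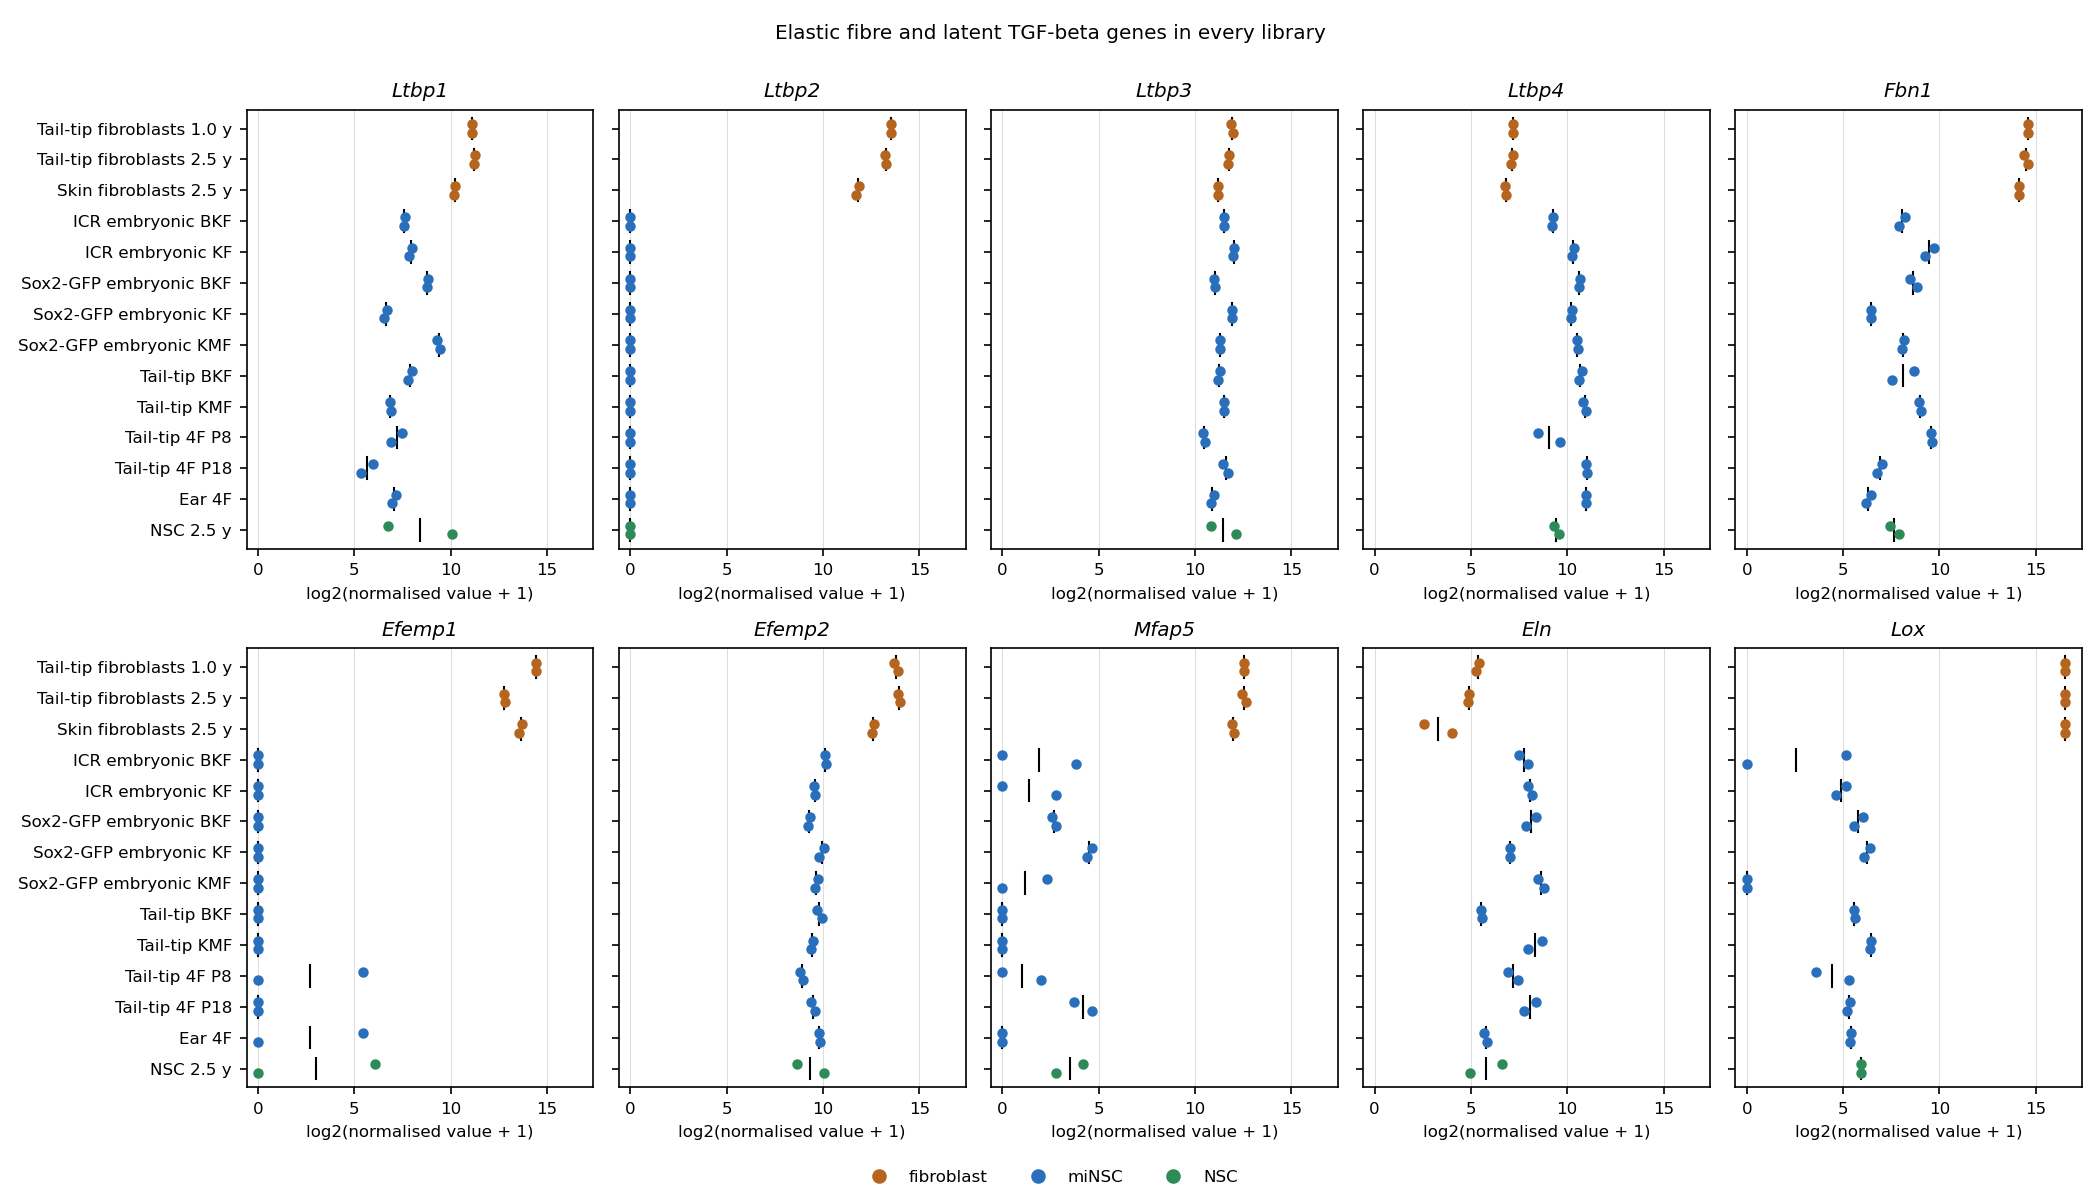
Value of each gene in each of the 28 libraries on a log2(normalised value + 1) axis; each point is 1 library, the black tick is the mean of a group, and colours give fibroblasts, miNSC and NSC. Ltbp2 and Efemp1 sit at or near 0 in neural libraries, Lox sits at the shared top value in all 6 fibroblast libraries, and Ltbp4 and Eln are higher in miNSC.

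Values of other cell types moved with this contrast. The summed level of 6 smooth muscle and pericyte markers was 48985 to 57349 in fibroblasts and 62 to 761 in miNSC, that of 5 detected macrophage markers 552 to 4629 against 11 to 209, and that of 4 detected endothelial markers 231 to 405 against 89 to 204. For 3 detected Schwann cell markers it was 2117 to 3444 against 644 to 1940, and for the 8 neural stem cell markers 496 to 802 against 49202 to 129945. Adgre1, a macrophage gene, was at 0 in all 20 miNSC libraries, and 17 of 20 were at 0 for Ptprc, the pan-leukocyte gene. The part of these cells in the results was not tested.

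Neural stem cells that had not been induced were set against the same fibroblast libraries, so the 2 comparisons share their reference. Of the 10 genes, 9 passed the test (background 65.9%), 7 lower (31.1% of all genes) and 2 higher (34.9%) than in fibroblasts, and 8 did not overlap (background 53.8%). Ltbp2, Efemp1 and Mfap5 passed the filter only through these fibroblast libraries, so their lower calls add no support to these counts. Ltbp2 was at 0 in both NSC libraries, Lox was 60 in both, Mfap5 was 17 and 6, and Fbn1 was 172 and 236. Ltbp4 was 636 and 750, above every fibroblast library (log2 fold change 2.40 ± 0.18 SE; limma adjusted p = 3.77e-09). These 5 genes lay within the miNSC range or at the same 0.

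The 2 NSC libraries differed from each other in the remaining genes. Ltbp1 was 106 at passage 2 and 1076 at passage 5, Ltbp3 1808 and 4472, Efemp2 402 and 1062, Efemp1 65 and 0, and Eln 96 and 30. With 1 library per passage, passage cannot be told apart from the library, and these genes' contrasts depend on which library is kept. For Eln against fibroblasts the log2 fold change was 1.27 ± 0.38 SE (limma adjusted p = 0.00704), but without the passage 2 library it was 0.44 (adjusted p = 0.351) and with only the groups compared the adjusted p was 0.116. The fall of Ltbp1 against fibroblasts, -2.43 on the log2 scale (limma adjusted p = 0.000464), became -0.77 when the library of passage 2 was left out and -4.10 when that of passage 5 was, and with only the groups compared the adjusted p was 0.0604. Ltbp3 did not pass (limma adjusted p = 0.564). With passage 5 left out its log2 fold change was -0.79 (adjusted p = 3.37e-07), and with passage 2 left out its sign turned, to 0.51 (4.47e-05).

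Set directly against NSC, miNSC had higher Ltbp4 and Eln, and the other genes did not pass the test. That is 2 of 10, with a background of 40.6% (20.9% higher and 19.7% lower), and none of the 10 had libraries without overlap (background 8.06%). Ltbp4 averaged 1430 ± 525 (SD, n = 20) in miNSC against 693 ± 80.6 (n = 2) in NSC, a log2 fold change of 0.92 ± 0.16 SE (limma adjusted p = 0.000303). Eln averaged 214 ± 121 against 63 ± 46.7, with a log2 fold change of 1.67 ± 0.34 SE (limma adjusted p = 0.00103), which fell to 0.85 without the passage 5 library (adjusted p = 0.0751). With each group's mean as 1 sample neither gene passed (adjusted p = 0.665 and 0.624). The sign for Ltbp1, Ltbp3, Efemp1 and Efemp2 turned with the NSC library left out: Ltbp1 was 0.75 with passage 5 left out (adjusted p = 0.00238) and -2.58 with passage 2 left out (3.24e-08), and Ltbp3 was 0.52 (4.46e-05) and -0.79 (1.47e-06). In the same order, Efemp2 was 0.94 (adjusted p = 8.02e-06) and -0.46 (0.00712), and Efemp1 was -5.50 (0.0058) and 0.54 (0.844). Fbn1, Lox and Mfap5 each passed in 2 of the fits without 1 miNSC library: Fbn1 without either tail-tip BKF library (adjusted p = 0.0375 and 0.00887), Lox without either ICR BKF library (0.000301 and 0.00632), and Mfap5 without the second ICR BKF or the second ICR KF library (0.0206 and 0.0444).

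The 4 tail-tip miNSC groups could be set against fibroblasts of the same strain, tissue and age, which again are among the libraries used above. All 10 genes passed the test (background 66.0%), 8 lower (29.4% of all genes) and 2 higher (36.7%), and none overlapped (background 55.0%). Ltbp2, Efemp1 and Mfap5 could again only be called lower, as they passed the filter only through fibroblasts. Ltbp3 fell here from 3772 and 3953 in the tail-tip fibroblasts to between 1342 and 3398 in the 8 miNSC libraries, a log2 fold change of -0.72 ± 0.19 SE (limma adjusted p = 0.00385). Eln rose from 42 and 38 to between 45 and 410 (log2 fold change 1.92 ± 0.36 SE; limma adjusted p = 0.000186), and the 2 tail-tip BKF libraries, at 45 and 46, lay next to the fibroblasts. Ltbp4 rose 10.8-fold and Fbn1 fell 58.4-fold between the means, close to the folds over all miNSC groups, with which they share libraries.

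**Figure D2:**
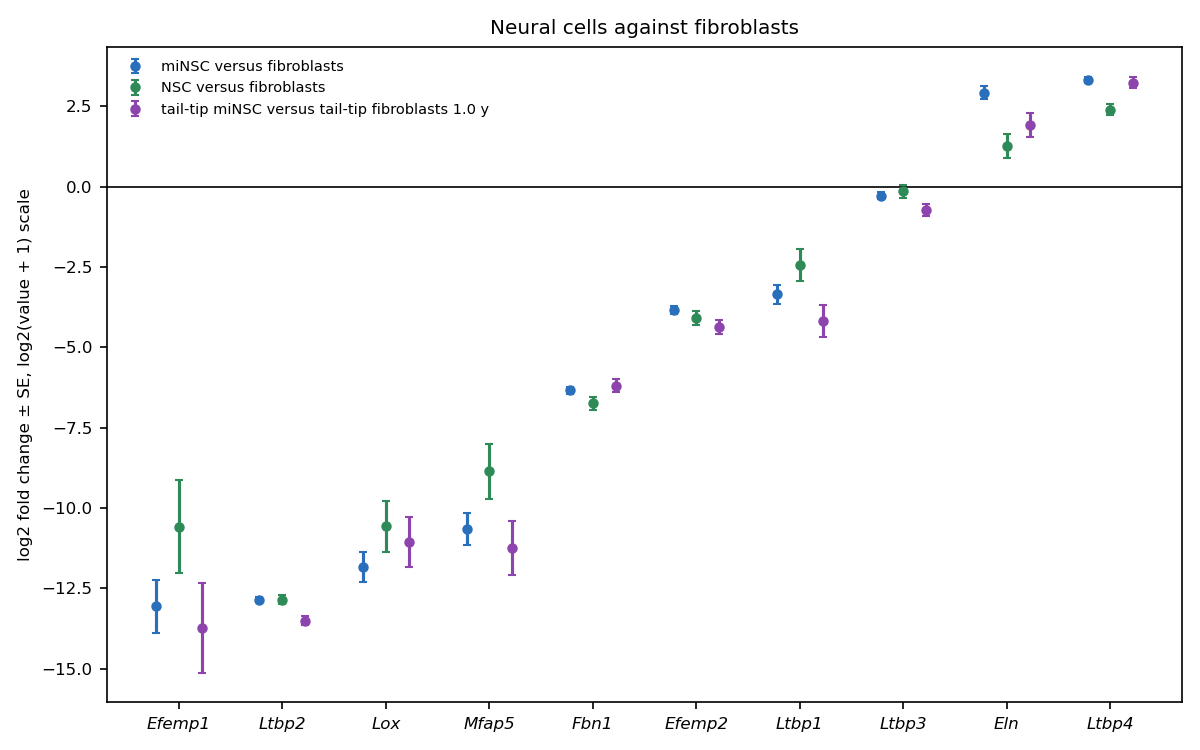
Log2 fold change ± SE from the limma fit of each gene in 3 comparisons of neural cells with fibroblasts, which share fibroblast libraries. Ltbp4 and Eln lie above 0 in all 3, Ltbp3 lies near 0, and the other 7 genes lie between -2.43 and -13.73; points for Ltbp2, at 0 in all neural libraries, and for Lox, at the top value in fibroblasts, depend on the added 1 or on the top of the scale.

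The other genes of the pathway were read from lists chosen with earlier results of these data known, against a background in this contrast of 42.8% of all genes higher and 33.7% lower. List genes at or near 0 in miNSC, as Loxl4 and Ctss below, passed the filter on low values only through other libraries. Such genes could hardly be called higher, so they add no support to the list counts and medians. Of 16 further microfibril and elastic fibre genes, 11 were lower in miNSC than in fibroblasts, 4 were higher and 1 did not pass (median log2 fold change -2.31). Adamtsl5 and Adamtsl4, secreted proteins of the microfibril, had log2 fold changes of -7.39 and -7.21, and Emilin2, a glycoprotein at the elastin and microfibril interface, fell by 8.09 (limma adjusted p between 1.5e-17 and 9.86e-14 for the 3). Fbn2, the fibrillin of developing tissue, rose, from a mean of 523 ± 437 (SD, n = 6) to 2298 ± 1600 (n = 20), a log2 fold change of 2.33 (limma adjusted p = 2.12e-14), with overlap between the groups. Fbn1 and Fbn2 thus passed in opposite directions.

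Of the 6 further crosslinking genes, 5 were lower and 1 higher. The lysyl oxidase paralogue Loxl1 fell by 10.98 on the log2 scale and Loxl3 fell by 5.95, and Loxl4 was at 0 in every one of the 20 miNSC libraries, with 1293 ± 345 (SD, n = 6) in fibroblasts. Tgm2, a transglutaminase that crosslinks matrix proteins, fell by 6.03 (limma adjusted p = 4.75e-12).

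On the TGF-beta side, 14 of 16 genes of the ligands and of their release were lower in miNSC and 2 were higher (median log2 fold change -3.44). Lrrc32, a membrane protein that holds latent TGF-beta, fell by 11.37 on the log2 scale, the membrane protease Mmp14 fell by 5.35 and the integrin subunit Itgb5 fell by 3.15. Itgb8, whose integrin binds and activates latent TGF-beta, rose by 4.37, from 199 ± 81.4 to 4293 ± 2097 (limma adjusted p = 7.5e-17). Of 12 receptor and Smad genes, 8 were lower, 1 higher and 3 did not pass. The type 2 receptor Tgfbr2 fell by 2.87, the co-receptors Tgfbr3 and Eng had log2 fold changes of -5.97 and -8.82, and the type 1 receptor Acvrl1 fell by 7.98.

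Genes known as TGF-beta targets were lower in 10 of 11 cases, with a median log2 fold change of -7.05. Col1a1, Tagln and Acta2, which are also fibroblast or smooth muscle markers, had log2 fold changes of -11.86, -8.87 and -8.48, and Pmepa1, which encodes a feedback inhibitor of TGF-beta signalling, fell by 5.39 (limma adjusted p = 2.54e-16). Of 8 genes for elastin-degrading proteases and the elastin receptor, 7 were lower and none higher; Ctss, also a macrophage gene, was listed at 0 in miNSC, and Ctsk fell by 6.74 and Ctsl fell by 3.12.

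Against NSC the lists moved in both directions, where 20.9% of all genes were higher and 19.7% lower. The microfibril list had 9 of 16 higher in miNSC, 5 lower and 2 not passed, with Emilin1 (log2 fold change 3.82), Mfap4 (3.75), Fbn2 (1.43) and Vcan (1.12), the large proteoglycan that binds fibrillin, all higher. Of the 6 crosslinking genes, 2 were higher, none lower and 4 did not pass; Loxl2 was higher by 3.52 (limma adjusted p = 3.37e-05). Of the ligand list 7 of 16 were lower, among them the ligand Tgfb2 (-1.83), Itgb5 (-1.82), Itgb8 (-1.54) and the procollagen protease Bmp1 (-0.91), and 4 were higher. Of the 12 receptor and Smad genes, 2 were higher, 2 lower and 8 did not pass. Tgfbr2 averaged 974 ± 732 in miNSC against 72 ± 2.83 in NSC (log2 fold change 3.25; limma adjusted p = 1.52e-12), without overlap. As the count of all genes called in this contrast fell from 6610 to 142 with each group's mean as 1 sample, these calls rest on libraries being treated as replicates.

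Among the 10 miNSC groups, 8 of the 10 genes varied beyond the spread between paired libraries (moderated F test of limma; background 68.2%). Ltbp2, at 0 throughout, and Efemp1 (adjusted p = 0.642) did not pass. The 8 include Mfap5, whose miNSC values are near 0. Fbn1 varied most clearly (adjusted p = 7.64e-08), from a mean of 79 in the ear line to 765.5 in the tail-tip 4F line at passage 8, a range of 9.69-fold. In descending order, that line (758 and 773) and ICR KF (605 and 846) overlapped and came first, followed by tail-tip KMF (490 and 521) and Sox2-GFP BKF (355 and 454). Tail-tip BKF (185 and 404) overlapped Sox2-GFP BKF and also Sox2-GFP KMF (266 and 289) and ICR BKF (242 and 292), which overlapped each other. The tail-tip 4F line at passage 18 (109 and 128), Sox2-GFP KF (88 and 88) and the ear line (72 and 86) were lowest, with no overlap between these 3.

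Ltbp1 spanned 13.0-fold among the miNSC groups (adjusted p = 0.0025, moderated F test of limma). Sox2-GFP KMF (630 and 693) and Sox2-GFP BKF (436 and 448) were above all others and apart from each other. ICR KF (230 and 250) overlapped tail-tip BKF (216 and 254), ICR BKF was 188 and 195, and the tail-tip 4F line at passage 8 (120 and 174) overlapped the ear line (124 and 142). Tail-tip KMF (114 and 118), Sox2-GFP KF (92 and 103) and the 4F line at passage 18 (40 and 62) followed without overlap.

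Eln spanned 8.70-fold (adjusted p = 0.00013). The means of Sox2-GFP KMF (396), tail-tip KMF (331), Sox2-GFP BKF (283), the 4F line at passage 18 (272), ICR KF (266) and ICR BKF (214) formed a run in which each group met or overlapped the next. The 4F line at passage 8 (120 and 174) and Sox2-GFP KF (128 and 130) overlapped each other. The ear line, at 51 and 56, and tail-tip BKF, at 45 and 46, were lowest and apart from the rest.

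Ltbp4, Ltbp3 and Efemp2 varied within narrower ranges of 3.61-fold, 2.93-fold and 2.34-fold (adjusted p = 4.64e-06, 0.000908 and 0.0296). For Ltbp4 the 4F line at passage 18 (2001 and 2118), the ear line (1974 and 2018) and tail-tip KMF (1829 and 2024) overlapped at the top, and the 4F line at passage 8 (356 and 786) and ICR BKF (600 and 620) overlapped at the bottom. For Ltbp3 the KF groups were highest in both strains, at 4005 and 4210 in ICR and 3858 and 3889 in Sox2-GFP, and the 4F line at passage 8 was lowest, at 1342 and 1458. For Efemp2, ICR BKF (1091 and 1129) was highest and the 4F line at passage 8 (443 and 505) lowest, with the groups between them overlapping in part. Lox (adjusted p = 0.000562) was lowest in Sox2-GFP KMF, where both libraries were at 0, and highest in tail-tip KMF, at 84 and 88. Mfap5 (adjusted p = 0.00633) was highest in Sox2-GFP KF, at 20 and 24, and the tail-tip 4F line at passage 18, at 12 and 24. Its mean over the miNSC libraries, 5.85, was below the filter of 10, which it passed only through the fibroblast libraries.

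**Figure D3:**
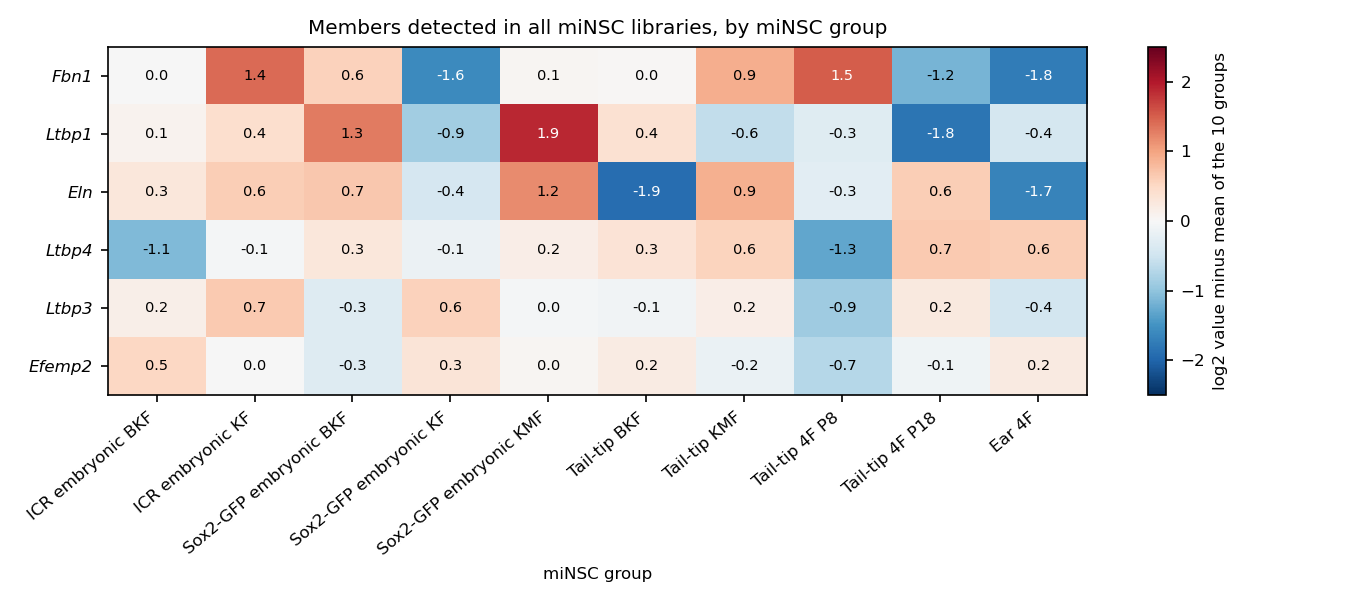
Difference of each group's mean log2(normalised value + 1) from the mean of the 10 miNSC groups for the 6 genes detected in all 20 miNSC libraries; red is higher and blue lower, and each cell prints its log2 difference. Fbn1, Ltbp1 and Eln vary most, and in the tail-tip 4F line Fbn1 is lower and Ltbp4 and Ltbp3 are higher at passage 18 than at passage 8.

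Embryonic lines made with KF and with BKF were compared in both strains. Each cocktail is 1 group of 2 libraries that may come from 1 picked colony, so cocktail and line cannot be told apart, here and in the comparisons of cocktails that follow. Ltbp2, at 0 in all 20 miNSC libraries, and Efemp1, at 0 in 18, left little or nothing to test among lines. Both stay in the count of 10 genes. In ICR lines, Fbn1 fell from 846 and 605 with KF to 292 and 242 with BKF, and Ltbp4 from 1286 and 1224 to 620 and 600. These were 2 of 10 genes, both lower (background 13.1%, with 6.69% higher and 6.42% lower), with log2 fold changes of -1.42 ± 0.26 SE (limma adjusted p = 0.00119) and -1.04 ± 0.22 SE (adjusted p = 0.00377). With only the groups compared, the call for Fbn1 was lost (adjusted p = 0.0781), and Ltbp3 (log2 fold change -0.51, adjusted p = 0.0246) and Efemp2 (0.54, adjusted p = 0.0218) passed. Lox, which did not pass, had 34 and 0 with BKF against 34 and 24, and without the first BKF library it passed (adjusted p = 1.9e-06). The summed fibroblast markers moved with this contrast, at 2204 to 2293 with KF and 184 to 271 with BKF. The smooth muscle and pericyte markers moved the other way, at 62 to 107 with KF and 711 to 761 with BKF, and the Schwann cell markers were at 1357 to 1422 and 905 to 916. The part of these cells in the contrast was not tested.

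In Sox2-GFP embryonic lines, BKF had higher Fbn1 and Ltbp1 and lower Ltbp3 than KF (2 higher and 1 lower of 10; background 37.7%, with 19.2% higher and 18.5% lower). Fbn1 was 88 and 88 with KF and 355 and 454 with BKF, a 4.60-fold difference of the means (log2 fold change 2.18 ± 0.26 SE; limma adjusted p = 8.67e-06). Ltbp1 was 103 and 92 with KF and 448 and 436 with BKF (log2 fold change 2.17 ± 0.62 SE; limma adjusted p = 0.0115), a call lost without the first BKF library (adjusted p = 0.0536) or the second KF library (0.0618). Ltbp3 fell from 3889 and 3858 to 2054 and 2092 (log2 fold change -0.90 ± 0.25 SE; limma adjusted p = 0.00863). The fibroblast markers summed to 897 to 999 with KF and 112 to 224 with BKF, and the smooth muscle and pericyte markers to 398 to 425 and 166 to 186. The neural stem cell markers summed to 63450 to 64257 with KF and 129914 to 129945 with BKF. The part of these markers in the contrast was not tested.

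The difference between BKF and KF lines differed in turn between the strains, by a test of that difference, for 4 of 10 genes (background 32.1%, with 15.8% higher and 16.4% lower). For Fbn1 the log2 fold change in ICR minus that in Sox2-GFP was -3.60 ± 0.37 SE (limma adjusted p = 2.25e-06), and no library left out ended this call. For Ltbp4 it was -1.46 ± 0.31 SE (adjusted p = 0.00178), likewise held in each of the 8 fits with 1 library left out. For Ltbp1 it was -2.49 ± 0.88 SE (adjusted p = 0.0401), lost in all 8 of those fits (0.0764 to 0.0972), and for Efemp2 it was 1.19 ± 0.39 SE (adjusted p = 0.0281), lost in 7 of the 8 (up to 0.0992). Efemp2 was 751 and 779 with KF and 1091 and 1129 with BKF in ICR, and 1079 and 878 against 648 and 592 in Sox2-GFP. Lox and Mfap5, which did not pass, passed without the first ICR BKF library (adjusted p = 3.64e-05 and 0.0289).

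**Figure D4:**
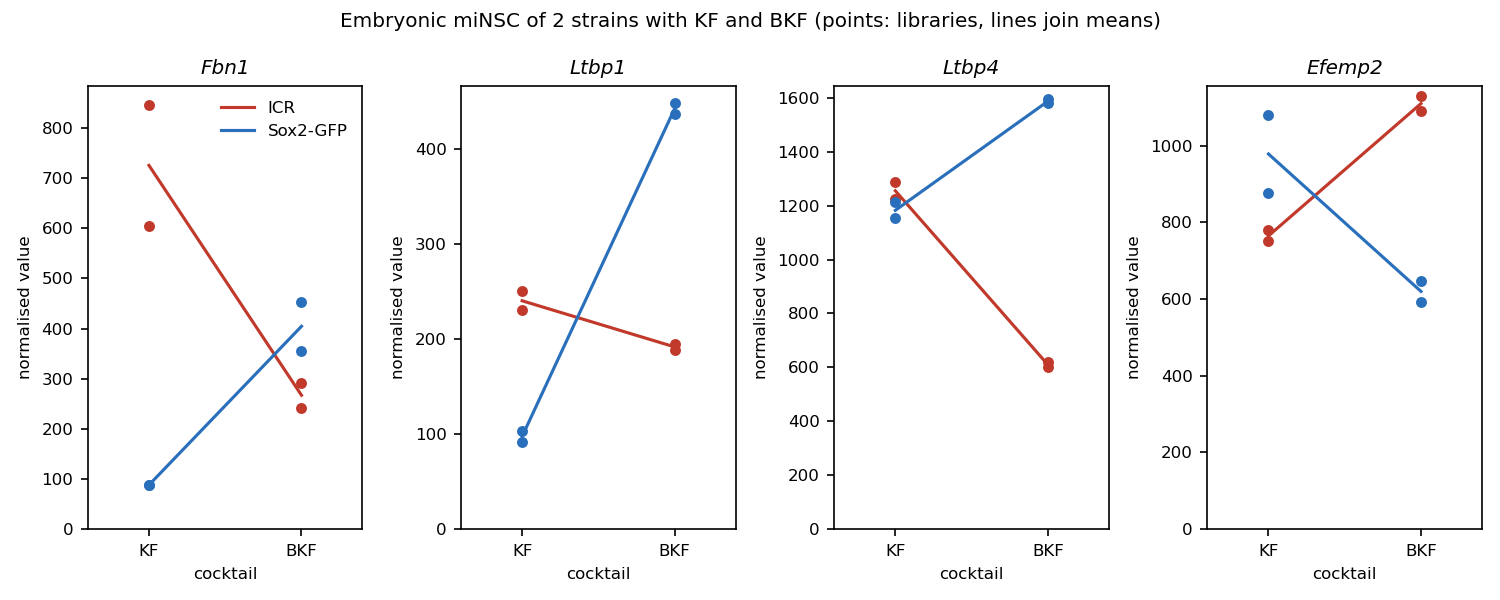
Normalised value of the 4 genes whose difference between BKF and KF differed between strains in the limma fit, with KF and BKF on the horizontal axis; points are libraries, lines join the means, and red is ICR and blue Sox2-GFP. The lines cross in all 4 panels; the change in each strain alone passed the test in both strains for Fbn1, in ICR lines for Ltbp4, in Sox2-GFP lines for Ltbp1 and in neither for Efemp2.

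Sox2-GFP embryonic lines made with KMF differed from those made with KF in 5 of 10 genes, 3 higher and 2 lower (KMF against KF, background 39.1%, with 19.9% higher and 19.2% lower). Fbn1 rose from 88 and 88 to 289 and 266 (log2 fold change 1.64 ± 0.26 SE; limma adjusted p = 0.000116), and Ltbp1 from 103 and 92 to 630 and 693 (2.75 ± 0.62 SE; adjusted p = 0.00223). Eln rose from 128 and 130 to 355 and 437 (1.60 ± 0.46 SE; adjusted p = 0.011), a call lost without the first KF library (adjusted p = 0.0521) or the second KMF library (0.0724). Lox went from 82 and 68 to 0 in both KMF libraries (adjusted p = 0.00011). Mfap5 went from 24 and 20 to 4 and 0 (adjusted p = 0.0196), lost without either KF library (0.0865 and 0.0655) or the second KMF library (0.209). Mfap5 passed the filter on low values only through the fibroblast libraries, and its values here are near 0. With a pseudocount of 10 the log2 fold change was -1.43 for Mfap5 and -3.08 for Lox, against -3.36 and -6.24 in the main fit. The BKF and KMF contrasts share their KF libraries. The fibroblast markers summed to 897 to 999 with KF and 583 to 604 with KMF, the smooth muscle and pericyte markers to 398 to 425 and 88 to 165, and the Schwann cell markers to 1096 to 1115 and 1499 to 1619; their part was not tested.

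The pathway lists in KMF against KF had Fbn2 far higher (a mean of 5337 against 454.5; log2 fold change 3.56, limma adjusted p = 2.3e-10), with 8 of 16 microfibril genes higher and 1 lower. Of the 16 ligand and release genes 2 were higher and 6 lower, with Tgfb2 higher by 2.02 and Mmp14 at -3.12 on the log2 scale. Of the 12 receptor and Smad genes 4 were higher and 3 lower: Tgfbr2 rose by 2.57, and Skil, a repressor of Smad signalling that TGF-beta itself induces, fell by 2.66 (adjusted p = 2e-10). Of the 11 target genes 2 were higher and 4 lower, among them Pmepa1, which fell by 2.99. In BKF against KF of the same strain, where 19.2% of all genes were higher and 18.5% lower, the microfibril list had 5 of 16 higher and 3 lower, and Fbn2 rose by 2.98. The ligand list had 4 of 16 higher and 6 lower, and Thbs1, an activator of latent TGF-beta, fell by 5.02 on the log2 scale (adjusted p = 4.61e-05). The receptor list had 2 of 12 higher and 2 lower, with Skil, which fell by 2.02, and the target list had 1 of 11 higher and 4 lower.

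In tail-tip lines, BKF had less Eln and Fbn1 than KMF (2 of 10, both lower; background 13.0%, with 6.75% higher and 6.22% lower). Eln was 45 and 46 with BKF against 410 and 252 with KMF, a 7.27-fold difference (log2 fold change -2.79 ± 0.46 SE; limma adjusted p = 0.000756). With only these groups in the fit its adjusted p was 0.0718. Fbn1 was 404 and 185 against 490 and 521 (log2 fold change -0.88 ± 0.26 SE; limma adjusted p = 0.0354), and this rested on single libraries: it was -0.32 without the second BKF library (adjusted p = 0.53), -1.44 without the first (0.000331), and lost without either KMF library (0.121 and 0.167). With only these groups in the fit the adjusted p for Fbn1 was 0.404. The neural stem cell markers were at 76412 to 123823 with BKF and 63979 to 65279 with KMF, the endothelial ones at 126 to 132 and 177 to 200, and their part was not tested.

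The difference between the same pair of cocktails differed between tail-tip and embryonic Sox2-GFP lines for 3 of 10 genes, all with a negative difference (background 13.1%, with 6.77% higher and 6.33% lower). For Lox the difference of log2 fold changes was -6.65 ± 1.39 SE on the log2 scale (limma adjusted p = 0.00476): Lox was 46 and 48 with BKF and 88 and 84 with KMF in tail-tip lines, and 64 and 46 with BKF and 0 in both KMF libraries in embryonic lines, so the size depends on the added 1. For Eln it was -2.30 ± 0.65 SE (adjusted p = 0.0286), lost in 5 of the 8 fits with 1 library left out (up to 0.117). For Fbn1 it was -1.42 ± 0.37 SE (adjusted p = 0.0184), lost in 4 of the 8 (up to 0.0823) and with only those groups in the fit (0.158).

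At matched cocktails (BKF and KMF), tail-tip lines had lower Ltbp1 and Eln and higher Lox than embryonic Sox2-GFP lines (3 of 10, background 33.0%, with 15.8% higher and 17.2% lower). Ltbp1 ran from 114 to 254 in the 4 tail-tip libraries and from 436 to 693 in the 4 embryonic ones, without overlap (log2 fold change -1.71 ± 0.44 SE; limma adjusted p = 0.00665). This was the only gene of the 10 without overlap (background 24.3%). Eln ran from 45 to 410 against 234 to 437 (log2 fold change -1.44 ± 0.32 SE; adjusted p = 0.00264), with the low values all in BKF. Lox ran from 46 to 88 against 0 to 64 (log2 fold change 3.12 ± 0.69 SE, limma adjusted p = 0.00238), with the values of 0 all in embryonic KMF. With a pseudocount of 10 this log2 fold change was 1.54. Mfap5 passed without the second embryonic KMF library (adjusted p = 0.0288) and Fbn1 without the second tail-tip BKF library (0.0225). Age of the donor and tissue cannot be told apart here, since embryonic and tail-tip lines differ in both. Each group may also come from a single picked colony, so origin and line cannot be told apart.

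ICR and Sox2-GFP embryonic lines, over KF and BKF, differed in Fbn1, Ltbp4 and Lox (3 of 10, background 38.4%, with 19.3% higher and 19.1% lower). Each group may come from a single picked colony, so strain and line cannot be told apart. Fbn1 averaged 2.02-fold more in ICR lines (log2 fold change 1.21 ± 0.18 SE; limma adjusted p = 8.85e-05) and Ltbp4 less (-0.65 ± 0.15 SE; adjusted p = 0.00365), but each overlapped, and both were among the genes whose difference between BKF and KF differed by strain. Lox was 0 to 34 in ICR against 46 to 82 in Sox2-GFP, without overlap (log2 fold change -2.29 ± 0.69 SE; adjusted p = 0.016). It was lost without the second ICR KF library (adjusted p = 0.0504) and with only the groups compared (0.185), and moved to -1.01 without the second ICR BKF library and -3.57 without the first. Mfap5 passed without the second ICR BKF or the second ICR KF library (adjusted p = 0.0039 and 0.0155), as it did with the replicate block (0.0467).

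Passage separated the libraries of one tail-tip 4F line. From passage 8 to passage 18, Fbn1 fell from 758 and 773 to 128 and 109, a 6.46-fold difference (log2 fold change -2.69 ± 0.26 SE; limma adjusted p = 1.86e-06), and Ltbp4 rose from 356 and 786 to 2001 and 2118 (1.96 ± 0.22 SE; adjusted p = 6.99e-06). Ltbp3 rose from 1342 and 1458 to 2799 and 3398 (1.14 ± 0.25 SE; adjusted p = 0.00191). Mfap5 rose from 0 and 3 to 12 and 24 (adjusted p = 0.0293), lost without the second passage 18 library (0.167) or the first passage 8 library (0.23). These were 4 of 10 genes (background 35.1%, with 17.5% higher and 17.6% lower). Of these, Mfap5 passed the filter on low values only through the fibroblast libraries, and its values here are near 0. Its log2 fold change was 3.17, and 1.26 with a pseudocount of 10. With only these 4 libraries in the fit, Fbn1 and Ltbp3 passed, and Ltbp4 (adjusted p = 0.0973) and Mfap5 (0.126) did not. Efemp1 passed without the second passage 8 library (0.0394). Since there is 1 line at each passage, the comparison is of that line. From passage 8 to 18 the neural stem cell markers went from between 81688 and 83624 to between 49202 and 52023, the Schwann cell markers from between 644 and 725 to between 1531 and 1940, the fibroblast markers from between 407 and 667 to between 732 and 911, and the endothelial markers from between 155 and 195 to between 89 and 104. Their part was not tested.

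The ear 4F line had less Fbn1 and Eln than the tail-tip 4F line over both passages, with more Ltbp4 and less Mfap5 (4 of 10; background 28.6%, with 14.1% higher and 14.5% lower). Fbn1 was 86 and 72 against 109 to 773 (log2 fold change -1.92 ± 0.23 SE; limma adjusted p = 1.04e-05) and Eln 51 and 56 against 120 to 326 (-1.86 ± 0.40 SE; adjusted p = 0.00233), both without overlap. Ltbp4 overlapped, at 1974 and 2018 against 356 to 2118 (0.93 ± 0.19 SE; adjusted p = 0.00157), and with only the groups compared it did not pass (0.144). Mfap5 was at 0 in both ear libraries and 0 to 24 in the tail-tip line (adjusted p = 0.0461), a call lost in 5 of the 6 fits with 1 library left out (up to 0.182). These Mfap5 values are near 0, and the gene passed the filter on low values only through the fibroblast libraries. Its log2 fold change was -2.59, and -0.82 with a pseudocount of 10. The passage of the ear line is not given, and Fbn1 and Ltbp4 moved with passage in the tail-tip line, so passage, tissue and line cannot be told apart.

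Between tissues, Ltbp2, Efemp2 and Eln were lower in skin than in tail-tip fibroblasts. At 2.5 years, skin fibroblasts had 3772 and 3398 against 9708 and 9950 in tail-tip fibroblasts, 2.74-fold less (log2 fold change -1.46 ± 0.17 SE; limma adjusted p = 8.43e-06). Efemp2 was 6320 and 6032 against 15161 and 16127, 2.53-fold less (log2 fold change -1.34 ± 0.27 SE; limma adjusted p = 0.00161). Eln was 5 and 15 against 29 and 28 (log2 fold change -1.59 ± 0.46 SE; limma adjusted p = 0.0171). These were 3 of 10 genes, all lower (background 26.6%, with 14.5% lower). For Eln the call was lost without the first skin library (log2 fold change -0.88, adjusted p = 0.24), without either tail-tip library (0.0808 and 0.0656), with a pseudocount of 10 (log2 fold change -0.99, adjusted p = 0.0551) and with only the groups compared (0.165). In that fit of 2 groups, 6 of the 10 genes passed: Ltbp1 (adjusted p = 0.00301), Ltbp3 (0.00332), Efemp1 (0.00969) and Mfap5 (0.0431) were added to Ltbp2 and Efemp2. The count of all genes called in that fit stayed within 1.5 times of that in the fit over all groups. The summed macrophage markers were 1196 to 1260 in skin and 4228 to 4629 in tail-tip fibroblasts of that age, and the fibroblast markers 128570 to 129477 against 184639 to 184938. The 1 cartilage marker in the table was 12 to 14 in skin and 416 to 432 in tail-tip fibroblasts. The part of these cells was not tested. Each tissue is 1 group of 2 libraries that may come from 1 mouse or culture, so tissue cannot be told apart from either.

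Donor age gave no call among the 10 genes in the fit over all groups, but Ltbp2 passed there with a pseudocount of 10 (adjusted p = 0.0482) or without the variance trend (0.00406). Tail-tip fibroblasts at 2.5 and 1.0 years had 0 of 10 called, 0 at an unadjusted p under 0.05, with a background of 11.0% (5.63% higher and 5.41% lower). For Efemp1 the values nonetheless stood apart, at 21805 in both 1.0-year libraries and 6859 and 7153 at 2.5 years, 3.11-fold lower (log2 fold change -1.64 ± 1.76 SE; limma adjusted p = 0.656). The SE of Efemp1 comes from all 28 libraries, among them neural ones at 0 or 42 to 65. With only the tail-tip groups in the fit, Efemp1 passed (limma adjusted p = 0.00337), as did Ltbp2 (0.0239), 11652 in both against 9708 and 9950, and Ltbp1 (0.0382), 2167 and 2178 against 2416 and 2372. For Efemp1 and Ltbp2 both 1.0-year libraries held an identical value. The 100 highest ranks of the scale held only 19 different values, so some spread between high values may be hidden from these p-values. The macrophage markers summed to 552 to 624 at 1.0 and 4228 to 4629 at 2.5 years, the cartilage marker was 788 to 826 and 416 to 432, and their part was not tested. Of the lists, Fbn2 was higher at 2.5 years, with a mean of 1055 against 422 at 1.0 years (log2 fold change 1.32, limma adjusted p = 6.99e-05). Of the 16 microfibril genes it was the 1 that was higher, and 2 were lower. Each age is 1 group of 2 libraries that may come from 1 mouse or culture, so age cannot be told apart from either.

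**Figure D5:**
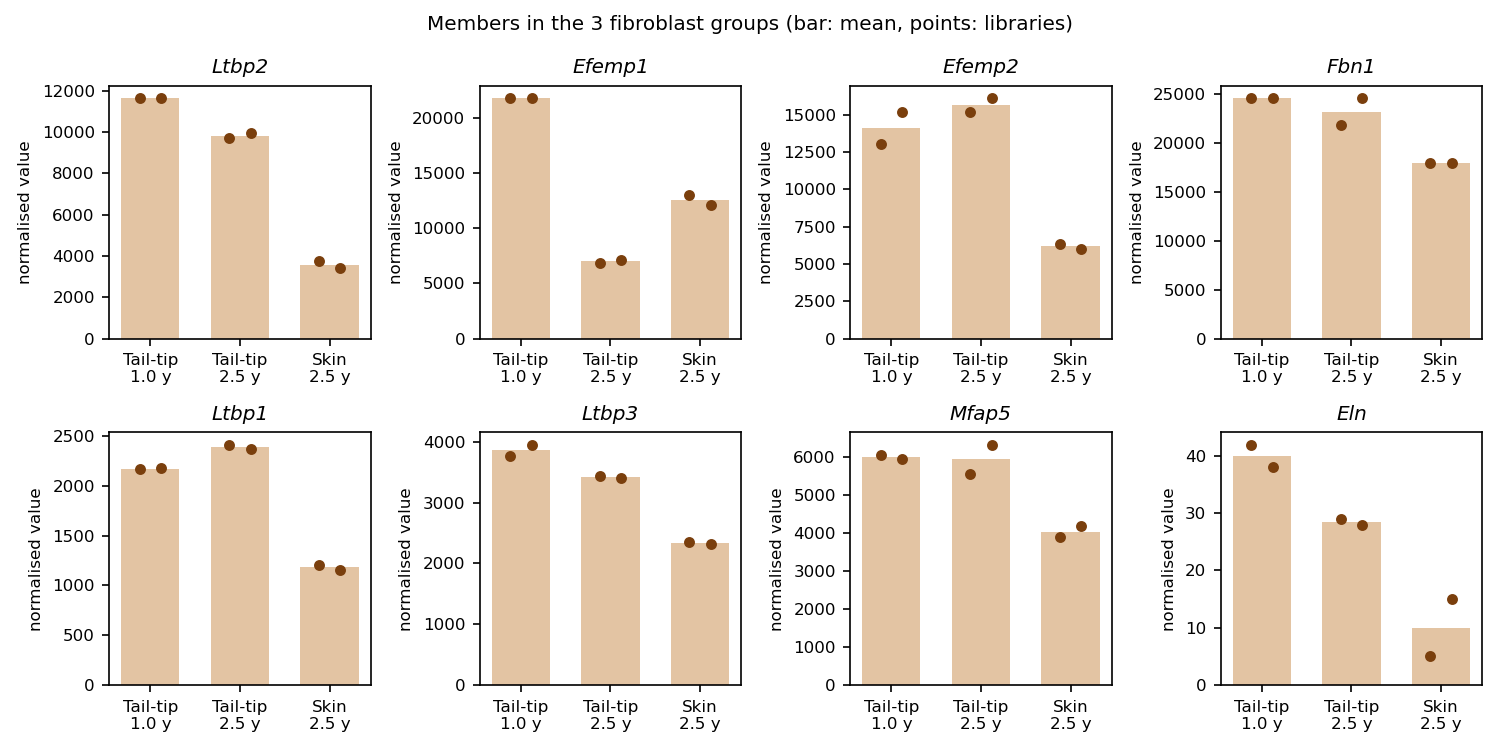
Normalised value of 8 of the genes in the 3 fibroblast groups on linear axes from 0; bars are means of 2 libraries and points are libraries. The means of Ltbp2, Efemp2, Fbn1, Ltbp1, Ltbp3, Mfap5 and Eln are lowest in skin fibroblasts. Of these, Ltbp2, Efemp2 and Eln passed the test against tail-tip fibroblasts of the same age in the fit over all groups. Efemp1 is highest in 1.0-year tail-tip fibroblasts.

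Over the 3 fibroblast groups together, Ltbp2 (adjusted p = 1.55e-06), Efemp2 (0.0016) and Eln (0.00442) varied in the moderated F test of limma (3 of 10, background 39.6%). With only the fibroblast libraries in the fit, 8 of 10 passed. The count of all genes called there stayed within 1.5 times of that in the fit over all groups. Lox could not vary in these values, since every fibroblast library held the top value.

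The genes whose pattern over the 14 group means was most like each member are given as a description; over these points the split between fibroblasts and neural cells dominates, and all share libraries and the same scale. By Pearson's r of log2(value + 1), Ltbp2 was most like Arhgef5 (0.9999), Efemp1 like Arhgef28 (0.9897), Efemp2 like Sdr39u1 (0.9842), Mfap5 like Gskip (0.983), Ltbp1 like Adam15 (0.9806), Lox like Cav1 (0.9777) and Fbn1 like Cd248 (0.9762). Ltbp4 was most like Prpf40b (0.968), Ltbp3 like Rnf103 (0.8986) and Eln like Ctif (0.8963). Over the 10 miNSC groups alone, Ltbp1 was again most like Adam15 (0.9816), Ltbp4 like Gdpd3 (0.9682), Ltbp3 like Lrp1 (0.9345), Fbn1 like Fam111a (0.9283), Efemp2 like Retreg2 (0.8993) and Eln like Serpine2 (0.8881).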

How the data were processed

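Oligo(dT)-enriched RNA was sequenced on Illumina machines, per the labels' protocols. RSEM, Bowtie2 2.0 and the build mm10 are named in the submitters' processing notes, without their roles. The authors deposited 1 table of scores: whole-number normalised expression values per gene and library, of a normalisation not given in the sources used here. All 17295 gene identifiers matched the GENCODE annotation of GRCm38. As the values are not counts, limma 3.58.1 (R 4.3.3) was run on log2(value + 1) with a variance trend, 1 term per group and all 28 libraries, over the 16275 genes with a mean of at least 10. P-values were adjusted by the Benjamini-Hochberg method over all of them, with a threshold of 0.05. The added 1 shrinks fold changes of low genes, but where values are at 0 the size depends on it and can be large. Lox in KMF against KF, for example, was -6.24 on the log2 scale, and -3.08 with a pseudocount of 10. The procedure was tested on simulated data, drawn as normal values around each gene's mean. These held no zeros, shared scale or top value, so the test does not bear on those limits.

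The members and the gene lists were chosen with earlier results of these data known. Of a list whose genes are named in a comparison, counts are given over all its tested genes, and at most the 4 genes with the smallest adjusted p in a comparison are named; list members listed at 0 on a whole side are given as such. Adgre1, Ptprc and Sox2 are named as markers. Likeness names the 1 tested gene outside the members with the highest r per member, predicted genes left out, and over miNSC groups for members with a mean of at least 100 in some miNSC group. Replicate numbers did not pair the libraries: differences between numbered replicates correlated at -0.0547 to 0.0709 over 78 pairs of groups. Alternatives were a pseudocount of 10, no filter, a mean of at least 50, quantile and median scaling, no variance trend, a robust variance prior, only the groups compared, group means, the replicate block and leaving out each library. Tables were made with Python 3.11.15, pandas 2.3.3, numpy 2.4.6 and matplotlib 3.10.9.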

Additional observations from a re-analysis of the deposited data

Results flagged for a closer look

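The difference between BKF and KF lines differed between ICR and Sox2-GFP embryonic lines, by a test of the difference itself in the limma fit, for Fbn1 (log2 fold change in ICR minus Sox2-GFP -3.60), Ltbp1 (-2.49), Ltbp4 (-1.46) and Efemp2 (1.19). Fbn1 was lower with BKF in ICR lines and higher in Sox2-GFP lines, each past the threshold. Ltbp4 passed in ICR lines and not in Sox2-GFP lines, Ltbp1 in Sox2-GFP lines and not in ICR lines, and Efemp2 in neither alone.

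The difference between BKF and KMF differed between tail-tip and embryonic Sox2-GFP lines for Fbn1 (log2 fold change in tail-tip minus embryonic -1.42), Eln (-2.30) and Lox (-6.65). The value for Lox rests on both embryonic KMF libraries being at 0. Each contrast rests on 8 libraries. No group had more than 2 libraries, so none could be searched for an outlying library. The 20 sets searched for a single outlying value were each gene's 6 fibroblast libraries and its 10 miNSC group means, and none held one. A set without spread, as for Lox in fibroblasts or Ltbp2 in miNSC, could hold none. Near-equal paired libraries in the fibroblast sets also made a single outlier hard to flag.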

How the results depend on the processing

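With a replicate block the number of genes called stayed within 1.5 times of the reported one in every comparison, 1 single-gene call changed (Mfap5, ICR versus Sox2-GFP, log2 fold change -1.95, adjusted p = 0.0467), and the numbers did not pair the libraries. Median scaling changed nothing, since every library has the same median of tested genes, 278. A count tool was not run, as the values are not counts.

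With each group's mean as 1 sample, genes called for NSC versus fibroblasts went from 10728 to 5374, and for miNSC versus NSC from 6610 to 142, with members from 2 to 0. With a pseudocount of 10 the members called became 1 (from 0; Ltbp2) for donor age and 5 (from 3) for B in Sox2-GFP lines, and without the variance trend 1 (Ltbp2) for donor age. With only the groups compared, members called became 3 for age, 6 for skin versus tail-tip, 6 for B in Sox2-GFP lines, 6 for tail-tip versus embryonic lines, 8 over the fibroblast groups, 2 for passage (genes 2169 from 5716) and 0 for tail-tip BKF versus KMF (genes 430 from 2110). For every other comparison in these fits the genes called stayed within 1.5 times of the reported number.

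Leaving out 1 library gave 2 to 5 members for miNSC versus NSC, 3 to 5 for KMF versus KF, 1 to 2 for tail-tip BKF versus KMF, 2 to 4 for strain and B, and 1 to 3 for origin and cocktail. Genes called ranged from 852 to 1257 for age, 1307 to 1474 for B in ICR lines, 894 to 2867 for tail-tip BKF versus KMF, 2637 to 4541 for ear versus tail-tip and 1355 to 2802 for origin and cocktail. Log2 values that changed sign ranged, with 1 library left out, from -0.79 to 0.51 for Ltbp3 in NSC versus fibroblasts; in miNSC versus NSC from -2.58 to 0.75 for Ltbp1, -0.79 to 0.52 for Ltbp3, -5.50 to 0.54 for Efemp1 and -0.46 to 0.94 for Efemp2; in B in ICR lines from -1.40 to 2.40 for Mfap5 and -4.89 to 0.24 for Lox; from -0.11 to 0.077 for Mfap5 with age, -0.0019 to 1.70 for Lox with passage, -1.36 to 4.07 for Efemp1 in ear versus tail-tip, -0.13 to 0.44 for Fbn1 in tail-tip versus embryonic lines, -4.43 to 0.70 for Lox in strain and B, and -0.019 to 0.066 for Ltbp3 in origin and cocktail. The cause was not tested. Of the single-gene values under an alternative, 2301 kept their direction and their side of the threshold, 84 lost a call, 52 gained one and 14 changed sign. The 2301 include 138 from median scaling, which could change nothing, and 136 from quantile normalisation of values already on a shared scale.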
